A study of Homo sapiens with 16 samples.

Results

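The 183 long non-coding RNAs (lncRNAs) described here were the well expressed ones of HCT116 cells, a widely used line from a human colon carcinoma. The members were chosen by their measured level. A gene belonged to the set if the deposited annotation typed it as lncRNA, if it had a symbol that did not start with SNHG, and if its mean over all 16 libraries reached 5 CPM (counts scaled to library size, with TMM factors between libraries). They were 183 of 4264 lncRNAs of any level, which is 4.29%, and of 22916 genes in the table. Members just inside the limit were ENSG00000285722 at a mean of 5.03 CPM, ERVK13-1 at 5.03 CPM and ENSG00000267002 at 5.02 CPM, and just outside it lay DLEU1 at 4.96 CPM and SLC38A4-AS1 at 4.88 CPM. Because the limit applied to the mean over all groups, 60 members averaged under 5 CPM in at least 1 group and 123 reached 5 CPM in each of the 4.

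Cells carried either an edited Rpn10 gene, whose product lacks the ubiquitin interacting motif (truncation below), or the unedited gene (WT below). PSMD4 is the gene of Rpn10, a proteasome subunit that binds ubiquitin chains. Each genotype received siRNA against OTUD5, a deubiquitinase (knockdown below), or a scrambled siRNA (scramble below), which made 4 groups of 4 libraries: truncation knockdown, WT knockdown, truncation scramble and WT scramble. RNA was taken 48 hours after transfection with siRNA at 50 nM, the OTUD5 siRNA being a mixture of 4, and all groups shared the cell line and the transfection. The labels do not say whether the edited cells were 1 clone, so clone and truncation cannot be told apart.

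LncRNAs are transcribed and spliced much like messenger RNAs but are not known to encode proteins. Some act as scaffolds in the nucleus, where NEAT1 builds paraspeckles and MALAT1 sits in nuclear speckles, some bind proteins or ribosomes in the cytoplasm, and some serve as hosts from whose introns or exons snoRNAs and miRNAs are cut. Many others are named after the protein-coding gene they face: an -AS transcript runs antisense to it, and a -DT transcript starts beside its promoter and runs the other way. Of the members, 57 had an -AS symbol, 21 a -DT symbol, 28 a LINC symbol, 8 a miRNA host symbol and 1 an -OT symbol. A further 33 had only an Ensembl identifier as symbol and 35 had other names. GENCODE release 29 types 6 members as protein-coding, among them CAST, the calpain inhibitor calpastatin, and MIR1915HG, and types RNF216P1 as a pseudogene. They were kept because the deposited table types them as lncRNA.

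Libraries held 28777244 to 29645663 counts, of which members took 0.314% to 0.369%. OTUD5 averaged 20.7 ± 1.5 CPM in truncation knockdown cells and 20.0 ± 2.0 CPM in WT knockdown cells, against 94.9 ± 2.3 CPM in truncation scramble cells and 88.5 ± 3.2 CPM in WT scramble cells (SD, n = 4 each). The titles of the 4 truncation knockdown libraries name the scrambled siRNA, while their description and treatment labels name OTUD5, and the OTUD5 levels were those of knockdown libraries. The colon epithelial markers EPCAM, KRT8, KRT18, CDH1 and CDX2 were present in every group. Of the markers of other cell types, COL1A1 (fibroblast) lay between 31.5 and 55.8 CPM over all libraries, PECAM1 (endothelium) reached at most 1.64 CPM, and PTPRC (leukocyte) reached 11.7 CPM in WT scramble replicate 4 and at most 0.821 CPM in the other 15 libraries. WT knockdown replicate 3 had 32264 detected genes, against 25626 to 27765 in the others, and WT knockdown replicate 2 differed most from its fellow replicates. Without WT scramble replicate 4 the calls counted below were 103 with truncation in scramble cells and 106 with knockdown in WT cells. Without WT knockdown replicate 2 they were 105 with truncation in knockdown cells and 106 with knockdown in WT cells, and without replicate 3 they were 90 and 112. Their part in single results was not tested beyond leaving each library out in turn. Where a single call of a lncRNA named by the rule is given below and was lost without a library, this is said. Calls that enter only the counts are not all marked in this way.

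Sequences of the members show what some of these RNAs carry. Mature miRNAs from RefSeq (GRCh38.p14) lay on the same strand inside 14 members, 40 entries in all. Those of the hosts described below are shown with the seed, bases 2 to 8, which pairs with target messenger RNAs, in capitals. MIR22HG on chromosome 17 holds miR-22, and MIR100HG on chromosome 11 holds miR-100, let-7a and miR-125b:
hsa-miR-22-3p: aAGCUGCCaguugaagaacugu
hsa-miR-100-5p: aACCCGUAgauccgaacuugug
hsa-let-7a-5p: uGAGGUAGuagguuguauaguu
hsa-miR-125b-5p: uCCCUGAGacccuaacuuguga

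MIR23AHG on chromosome 19, MIR9-1HG on chromosome 1 and MIR1915HG on chromosome 10 hold these:
hsa-miR-23a-3p: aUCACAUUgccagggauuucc
hsa-miR-27a-3p: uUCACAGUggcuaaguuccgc
hsa-miR-24-3p: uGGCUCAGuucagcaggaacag
hsa-miR-9-5p: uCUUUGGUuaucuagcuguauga
hsa-miR-1915-3p: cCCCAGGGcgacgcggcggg

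DLEU2 on chromosome 13 holds 2 miRNAs with 1 shared seed, and the paralogues CYTOR and MIR4435-2HG on chromosome 2 hold the same mature miRNA at separate places:
hsa-miR-15a-5p: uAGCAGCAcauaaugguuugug
hsa-miR-16-5p: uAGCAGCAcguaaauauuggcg
hsa-miR-4435: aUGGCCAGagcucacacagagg

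Over 100 CPM on average stood 5 lncRNAs, namely MALAT1 at 444 CPM, NORAD at 204 CPM, GAS5 at 156 CPM, NEAT1 at 146 CPM and CAST at 119 CPM, while the median member averaged 8.39 CPM. CPM does not correct for length. Per kilobase of annotated exon MALAT1 came first at 50.3 CPM per kb, followed by GAS5 at 43.0, NORAD at 38.2 and BCYRN1 at 31.3 CPM per kb, and NEAT1, with its 22767 bases, stood at 6.39 CPM per kb. Counts were per gene and forms of different length were not separated. A value may therefore be too low where much of the RNA is shorter than the annotated exons, and the order depends on this.

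**Figure D1:**
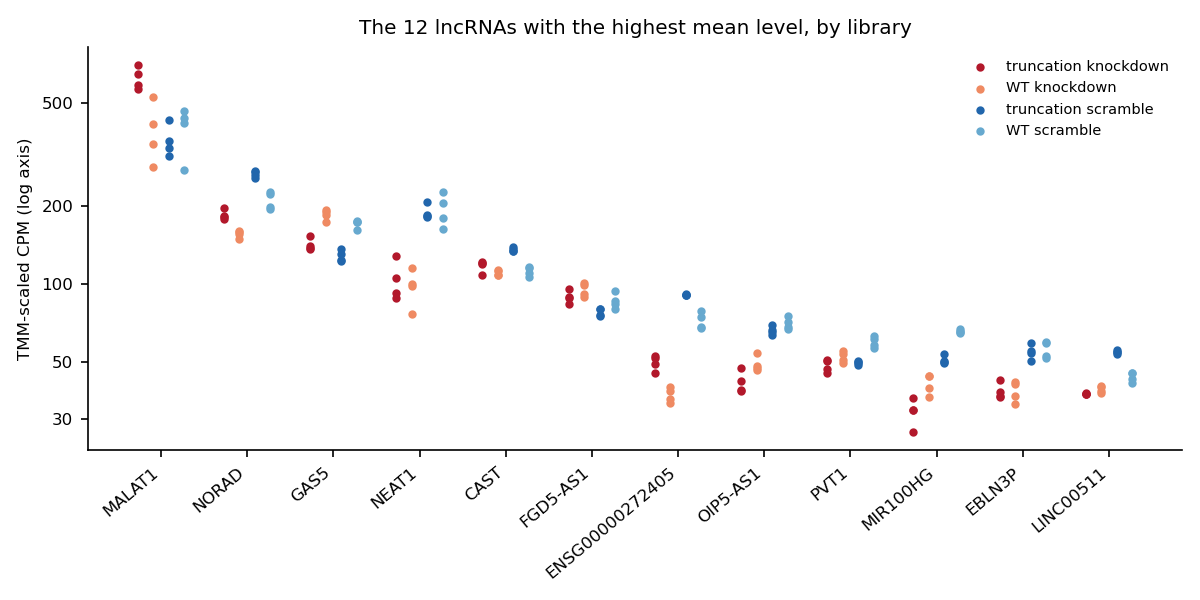
TMM-scaled CPM (log axis) of the 12 members with the highest mean, 1 point per library, in the order truncation knockdown, WT knockdown, truncation scramble and WT scramble. MALAT1 stands highest in the 4 truncation knockdown libraries at 564 to 698 CPM, and NEAT1 lies lower in both knockdown groups than in both scramble groups.

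The study's title concerns proteasome activity and gene expression, and the design allowed the Rpn10 truncation and the OTUD5 knockdown to be tested singly and together. Each comparison used edgeR's quasi-likelihood test over all 17104 genes that passed a filter on low counts, with Benjamini-Hochberg adjustment over all of them. Below, a called gene is one whose adjusted p lay under 0.05. All 183 lncRNAs passed that filter. Values after ± beside a log2 fold change are standard errors.

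In scramble cells, truncation against WT changed 110 lncRNAs, 40 higher and 70 lower, which is 60.1% of them, while 44.0% of all genes tested were called, 21.6% higher and 22.4% lower. In knockdown cells, truncation against WT changed 105, 55 higher and 50 lower, or 57.4%, against 45.5% of all genes, 21.9% higher and 23.6% lower. Knockdown against scramble changed 113 lncRNAs in WT cells, 46 higher and 67 lower, or 61.7%, against 50.3% of all genes, 25.2% higher and 25.1% lower. In truncation cells knockdown changed 122, 63 higher and 59 lower, or 66.7%, against 56.7% of all genes, 28.7% higher and 28.1% lower. The balance of directions in that comparison moved with the scaling: upper-quartile scaling gave 73 higher and 56 lower lncRNAs (5645 and 4247 of all genes), DESeq2 59 and 59 (4562 and 4785), and no filter 58 and 60. It moved over all genes with truncation in scramble cells too, where 3692 were higher and 3837 lower as given. Upper-quartile scaling gave 3084 and 4561 there, with 37 higher and 79 lower lncRNAs. DESeq2 gave 3804 and 3399, with 39 higher and 63 lower lncRNAs. The shares of lncRNAs called lay above those of all genes. Protein-coding genes with a mean of at least 5 CPM were called in 53.3%, 56.9%, 63.4% and 68.9% of cases, in the same order, and the lncRNAs' shares were within 7 percentage points of these. Of the 123 lncRNAs at 5 CPM or more in every group, 52.8%, 54.5%, 60.2% and 61.0% were called, in that order. Each of these shares lay above that of all genes and below that of the protein-coding genes. The differences were not tested.

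With truncation in scramble cells 38.3% of lncRNAs fell, against 24.9% of the well expressed protein-coding genes, and the median log2 fold change was -0.14 over lncRNAs and -0.02 over all genes tested. With knockdown in WT cells 36.6% fell, against 31.2% of the well expressed protein-coding genes, with medians of -0.09 and 0.01. In the other comparisons the shares that fell were lower than those of the protein-coding genes, at 27.3% against 29.7% with truncation in knockdown cells and 32.2% against 36.2% with knockdown in truncation cells. None of these differences was tested. Of the 123 lncRNAs at 5 CPM or more in every group, 33.3% fell with truncation in scramble cells and 39.0% with knockdown in WT cells. The other 60 reached the mean of 5 CPM only through groups where they were higher, so their changes are in part a product of the rule. This holds for each lncRNA named below that has a group mean under 5 CPM. The 18 well expressed SNHG lncRNAs, left out of the set by its rule, showed 0 higher and 16 lower calls with truncation in scramble cells and 2 higher and 14 lower with truncation in knockdown cells. In these bulk libraries, fewer cells making an RNA and less RNA per cell cannot be told apart.

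**Figure D2:**
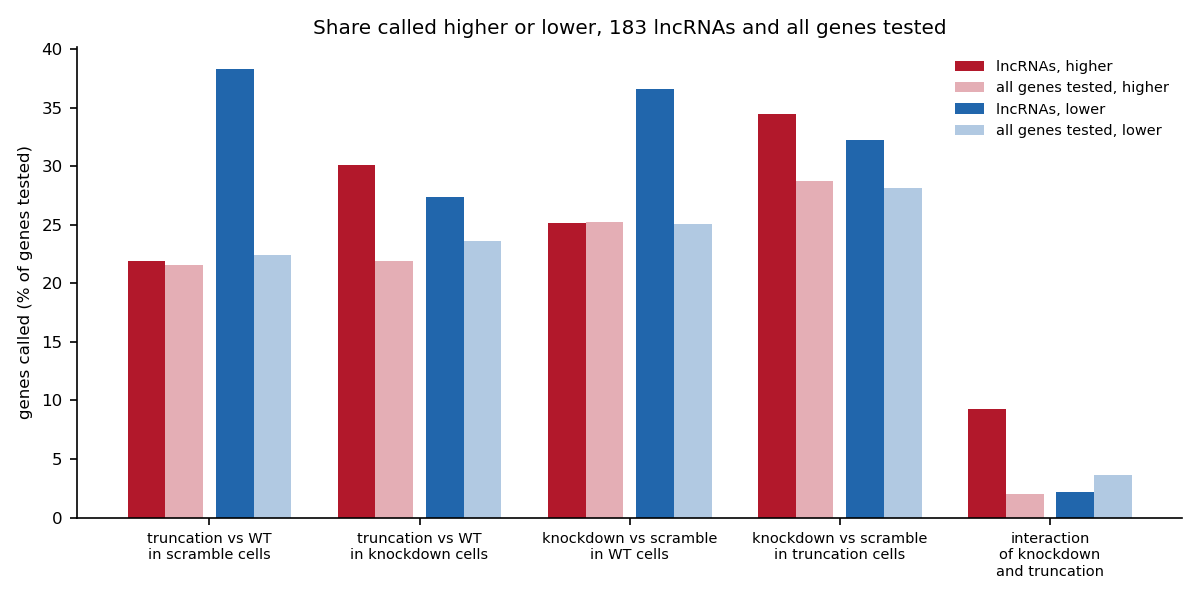
Percent of genes called higher (red) or lower (blue) at an edgeR adjusted p under 0.05 in each comparison, for the 183 lncRNAs (dark bars) and for all 17104 genes tested (pale bars). The bars for lncRNAs that fell with truncation in scramble cells, 38.3%, stand above the 22.4% of all genes.

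Both knockdown comparisons have no library in common. Of the 113 lncRNAs called with knockdown in WT cells, 94 (83.2%) were also called in truncation cells, which were 77.0% of the 122 called there. Among these 94, 40 were higher in both, 50 lower in both and 4 opposite. Over all genes the shares were 82.8% and 73.4%. The log2 fold changes of the 183 lncRNAs correlated between the genotypes with Pearson's r = 0.85, a description across genes, which are not independent. The truncation comparisons also share no library: 76 lncRNAs were called in both, 34 higher, 41 lower and 1 opposite, which is 69.1% of 110 and 72.4% of 105, with r = 0.82. Over all genes the shares were 71.2% and 68.8%.

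**Figure D3:**
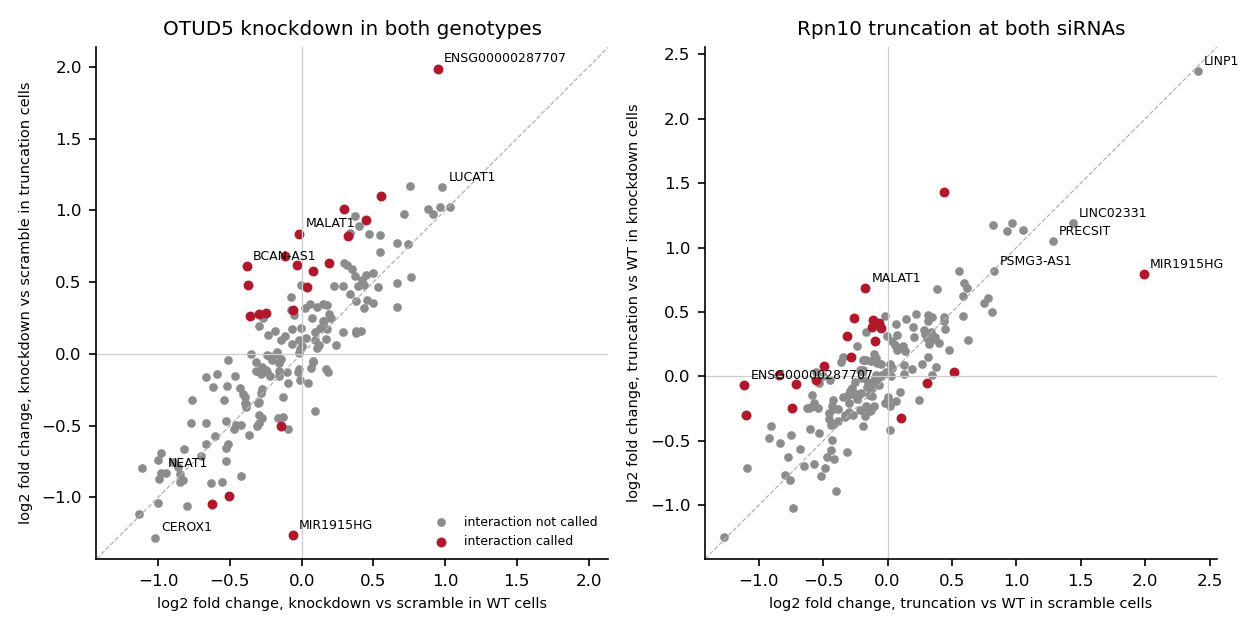
Log2 fold changes of the 183 lncRNAs, 1 point each. Left, knockdown against scramble in truncation cells (y) and WT cells (x). Right, truncation against WT in knockdown cells (y) and scramble cells (x). Red points are the 21 lncRNAs whose interaction was called, and the dashed line marks equal changes. LINP1 lies at the top right of the truncation panel near the line, while MIR1915HG and MALAT1 lie far from it in both panels.

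Among the lncRNAs of nuclear architecture, 2 of 5 on the list were members, MALAT1 and NEAT1, and they behaved differently. MALAT1, which associates with splicing factors in nuclear speckles (chr11:65497688-65506516, plus strand, GRCh38), had 564, 649, 588 and 698 CPM in truncation knockdown cells, against 334, 311, 356 and 431 CPM in truncation scramble cells. It had 347, 529, 283 and 414 CPM in WT knockdown cells, against 420, 439, 276 and 465 CPM in WT scramble cells. Every truncation knockdown library thus stood above every other library, while the other 3 groups overlapped. The log2 fold change with knockdown was 0.84 ± 0.14 in truncation cells (adjusted p = 2.3e-05, edgeR) and -0.02 ± 0.14 in WT cells (adjusted p = 0.93), and the difference between them was 0.86 ± 0.20 (adjusted p = 0.013). Of the counts of all members MALAT1 took between 16.7% and 20.1% in truncation knockdown libraries. Its share was between 9.48% and 16.04% in WT knockdown libraries, between 9.08% and 12.01% in truncation scramble libraries and between 8.10% and 12.9% in WT scramble libraries.

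NEAT1, the RNA around which paraspeckles form and a known p53 target (chr11:65422774-65445540, plus strand), fell with knockdown in both genotypes. It had 88.4, 92.0, 128 and 105 CPM in truncation knockdown cells, against 181, 184, 183 and 206 CPM in truncation scramble cells. WT knockdown cells had 99.9, 76.4, 98.4 and 115 CPM, against 205, 225, 163 and 179 CPM in WT scramble cells. Neither pair of groups overlapped, and the log2 fold changes were -0.83 ± 0.11 in truncation cells (adjusted p = 5.7e-07, edgeR) and -0.98 ± 0.11 in WT cells (adjusted p = 7.7e-08). Truncation moved it by -0.05 ± 0.11 in scramble cells and 0.10 ± 0.11 in knockdown cells, neither called. NEAT1 was also the only one of 9 listed p53-regulated lncRNAs in the set.

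Proteins linked to paraspeckles, among them factors that act on the NEAT1 3' end and not only those that build paraspeckles, were read from a list of 12, all measured. With knockdown 1 rose and 8 fell in truncation cells, and 2 rose and 5 fell in WT cells. NUDT21, a subunit of the cleavage factor that acts in choosing the NEAT1 3' end, averaged 89.9 ± 4.7 CPM in truncation knockdown cells and 235 ± 7.1 CPM in truncation scramble cells, and 112 ± 5.4 CPM in WT knockdown cells against 236 ± 17 CPM in WT scramble cells (SD, n = 4). Its log2 fold changes with knockdown were -1.35 ± 0.06 and -1.06 ± 0.06. The core proteins moved less, with SFPQ at 0.10 ± 0.05 (not called) and 0.15 ± 0.05 (called) and NONO at -0.21 ± 0.04 (called) and -0.09 ± 0.04 (not called), in truncation and WT cells. With truncation 0 of the 12 rose and 5 fell in scramble cells, and 0 rose and 9 fell in knockdown cells. Among well expressed protein-coding genes, knockdown gave calls for 68.9% in truncation cells and 63.4% in WT cells. Truncation gave calls for 53.3% of those genes in scramble cells and 56.9% in knockdown cells.

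All 4 snoRNA hosts without an SNHG symbol fell with truncation in scramble cells, and 3 of 4 in knockdown cells. Of all genes tested 22.4% and 23.6% fell in these comparisons, and of the 183 lncRNAs 38.3% and 27.3%. Whether the hosts differed from these shares was not tested. GAS5, a host of many box C/D snoRNAs whose spliced RNA is known to be degraded by nonsense-mediated decay, had 122, 130, 124 and 137 CPM in truncation scramble cells, against 173, 174, 161 and 173 CPM in WT scramble cells. In knockdown cells it had 153, 136, 140 and 137 CPM with truncation, against 184, 189, 173 and 192 CPM in WT. The groups did not overlap in either comparison (log2 fold changes -0.42 ± 0.05 and -0.37 ± 0.05). Its small rise with knockdown, 0.18 ± 0.05 in truncation cells and 0.13 ± 0.05 in WT cells, lost its call without a filter on low counts, where the adjusted p was 0.081 and 0.21, in WT cells also with only the groups compared, and without several single libraries: truncation knockdown replicate 1 and truncation scramble replicates 1 and 3 in truncation cells, and WT knockdown replicates 1, 2 and 4 and any of the WT scramble replicates in WT cells.

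ZFAS1, which hosts the SNORD12 family, averaged 9.14 ± 0.66 CPM in truncation scramble cells and 12.2 ± 0.99 CPM in WT scramble cells (-0.43 ± 0.09, adjusted p = 0.00034, edgeR), and knockdown moved it by 0.06 ± 0.09 and 0.12 ± 0.09 in truncation and WT cells, neither called. DANCR, a snoRNA host known for holding cells undifferentiated, had 17.9, 17.8, 19 and 15.5 CPM in truncation knockdown cells, 27.1, 25.1, 23.9 and 28.8 CPM in WT knockdown cells, 26.8, 28.3, 26.9 and 31.2 CPM in truncation scramble cells and 40.8, 36.4, 36.1 and 38.6 CPM in WT scramble cells. Truncation knockdown libraries were lowest and WT scramble libraries highest, with no overlap to the other groups. EPB41L4A-AS1 went the other way with knockdown, at 0.54 ± 0.08 in truncation cells and 0.37 ± 0.08 in WT cells, and shares 49.6% of its exon bases with other genes. With knockdown the 4 hosts gave 2 higher and 1 lower call in each genotype. Of all genes tested 28.7% rose and 28.1% fell in truncation cells, and 25.2% rose and 25.1% fell in WT cells.

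The 8 miRNA hosts by name split in every comparison: truncation gave 3 higher and 4 lower calls in scramble cells and 3 higher and 2 lower in knockdown cells, while knockdown gave 3 higher and 3 lower in truncation cells and 3 higher and 2 lower in WT cells. These counts are of host transcripts, and mature miRNAs were not measured. Of all genes tested 44.0% and 45.5% were called with truncation in scramble and knockdown cells. With knockdown 56.7% of all genes were called in truncation cells and 50.3% in WT cells. MIR22HG, a host induced by several stresses, had 10.7, 9.62, 12 and 12.9 CPM in truncation knockdown cells, 6.82, 10.7, 5.22 and 7.18 CPM in WT knockdown cells, 7.63, 8.15, 8.76 and 8.38 CPM in truncation scramble cells and 5.30, 4.81, 4.13 and 4.75 CPM in WT scramble cells. It rose with knockdown by 0.49 ± 0.14 in truncation cells and 0.66 ± 0.15 in WT cells, and with truncation by 0.78 ± 0.15 in scramble cells and 0.61 ± 0.14 in knockdown cells. WT knockdown replicate 2 was the highest of its group, and the WT knockdown libraries overlapped those of every other group.

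MIR100HG had 32.6, 32.5, 36.3 and 26.7 CPM in truncation knockdown cells, 44.0, 36.5, 44.0 and 39.5 CPM in WT knockdown cells, 49.2, 50.1, 49.9 and 53.6 CPM in truncation scramble cells and 65.2, 65.9, 64.5 and 66.9 CPM in WT scramble cells. The 4 groups did not overlap. The MIR100HG log2 fold changes were -0.63 ± 0.08 and -0.67 ± 0.07 with knockdown in truncation and WT cells, and -0.39 ± 0.07 and -0.35 ± 0.08 with truncation in scramble and knockdown cells. DLEU2, the host of miR-15a and miR-16, has no host symbol and is given for the shared seed shown above. It averaged 3.91 ± 0.29 CPM in truncation knockdown cells and 7.37 ± 0.76 CPM in truncation scramble cells, and 4.72 ± 0.78 CPM in WT knockdown cells against 8.45 ± 0.72 CPM in WT scramble cells (SD, n = 4). It was called lower with knockdown in both genotypes (-0.88 and -0.83) and with truncation in neither.

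MIR1915HG, which GENCODE release 29 lists as the protein-coding gene CASC10 (chr10:21492658-21497262, minus strand), stood apart in 1 group. It had 26.2, 26.0, 26.9 and 28.0 CPM in truncation scramble cells, against 6.72, 5.69, 6.42 and 7.86 CPM in WT scramble cells, and 11.8, 10.7, 11.4 and 9.63 CPM in truncation knockdown cells, against 6.48, 6.36, 5.85 and 6.69 CPM in WT knockdown cells. Truncation thus raised it by 1.99 ± 0.09 in scramble cells and by 0.79 ± 0.09 in knockdown cells. Knockdown changed it by -1.26 ± 0.08 in truncation cells and by -0.06 ± 0.10 in WT cells (adjusted p = 0.61). The interaction, -1.20 ± 0.13 (adjusted p = 3.2e-06, edgeR), was the most negative of all members. The MIR23AHG rise with knockdown was called in truncation cells (0.59 ± 0.15) and in WT cells (0.35 ± 0.15, adjusted p = 0.048), and the WT call was lost without WT knockdown replicate 2, where the change was 0.19, without WT knockdown replicate 4, without any WT scramble replicate, and with upper-quartile scaling, DESeq2 or only the groups compared. CYTOR was called in none of the 5 comparisons, and its near-identical paralogue MIR4435-2HG, from which counts may have been split, rose with truncation by 0.75 ± 0.09 and 0.57 ± 0.09. The MIR4435-2HG rise with knockdown in WT cells is counted among the miRNA hosts above and the cytoplasmic regulators below. That call was lost without WT knockdown replicate 2 or WT scramble replicates 1 or 4, and with only the groups compared.

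Of 17 lncRNAs listed as linked to MYC or colon cancer, 5 were members, and none of the 5 was called higher in any comparison. With truncation 4 fell in scramble cells and 2 in knockdown cells, and with knockdown 3 fell in truncation cells and 4 in WT cells. Of all genes tested 22.4% and 23.6% fell with truncation in scramble and knockdown cells. With knockdown 28.1% of all genes fell in truncation cells and 25.1% in WT cells. Whether the 5 differed from these shares was not tested. CASC19, from the gene desert near MYC on chromosome 8, had 2.87, 1.94, 2.59 and 2.22 CPM in truncation knockdown cells, 5.24, 6.71, 5.95 and 5.16 CPM in WT knockdown cells, 5.15, 5.82, 5.16 and 5.26 CPM in truncation scramble cells and 12.6, 14.7, 12.8 and 11 CPM in WT scramble cells. The truncation knockdown libraries were lowest and the WT scramble libraries highest, and the other 2 groups overlapped. Its log2 fold changes were -1.11 ± 0.13 and -1.13 ± 0.11 with knockdown in truncation and WT cells, and -1.27 ± 0.11 and -1.25 ± 0.13 with truncation in scramble and knockdown cells. These comparisons share groups with one another, so their values are set side by side only. CASC19 averaged 2.41 CPM in truncation knockdown cells, under the limit of 5 CPM, so its changes are in part a product of its choice.

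UCA1, a lncRNA first described in urothelial cancer, had 12.1, 13.0, 13.6 and 10.7 CPM in truncation knockdown cells, 20.8, 16.9, 19.1 and 20.0 CPM in WT knockdown cells, 21.6, 21.4, 21.3 and 21.0 CPM in truncation scramble cells and 37.8, 39.7, 36.4 and 30.5 CPM in WT scramble cells. The 4 groups did not overlap, with truncation knockdown lowest and WT scramble highest. PVT1, the neighbour of MYC, changed less: it averaged 49.5 ± 0.70 CPM in truncation scramble cells and 59.6 ± 2.9 CPM in WT scramble cells (-0.28 ± 0.06, adjusted p = 0.00027, edgeR), and knockdown moved it by 0.00 in truncation cells (adjusted p = 0.98) and by -0.18 ± 0.06 in WT cells (adjusted p = 0.010). MINCR averaged 4.16 ± 0.37 CPM in truncation knockdown, 4.97 ± 0.72 CPM in WT knockdown, 5.94 ± 0.57 CPM in truncation scramble and 8.52 ± 1.1 CPM in WT scramble cells.

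**Figure D4:**
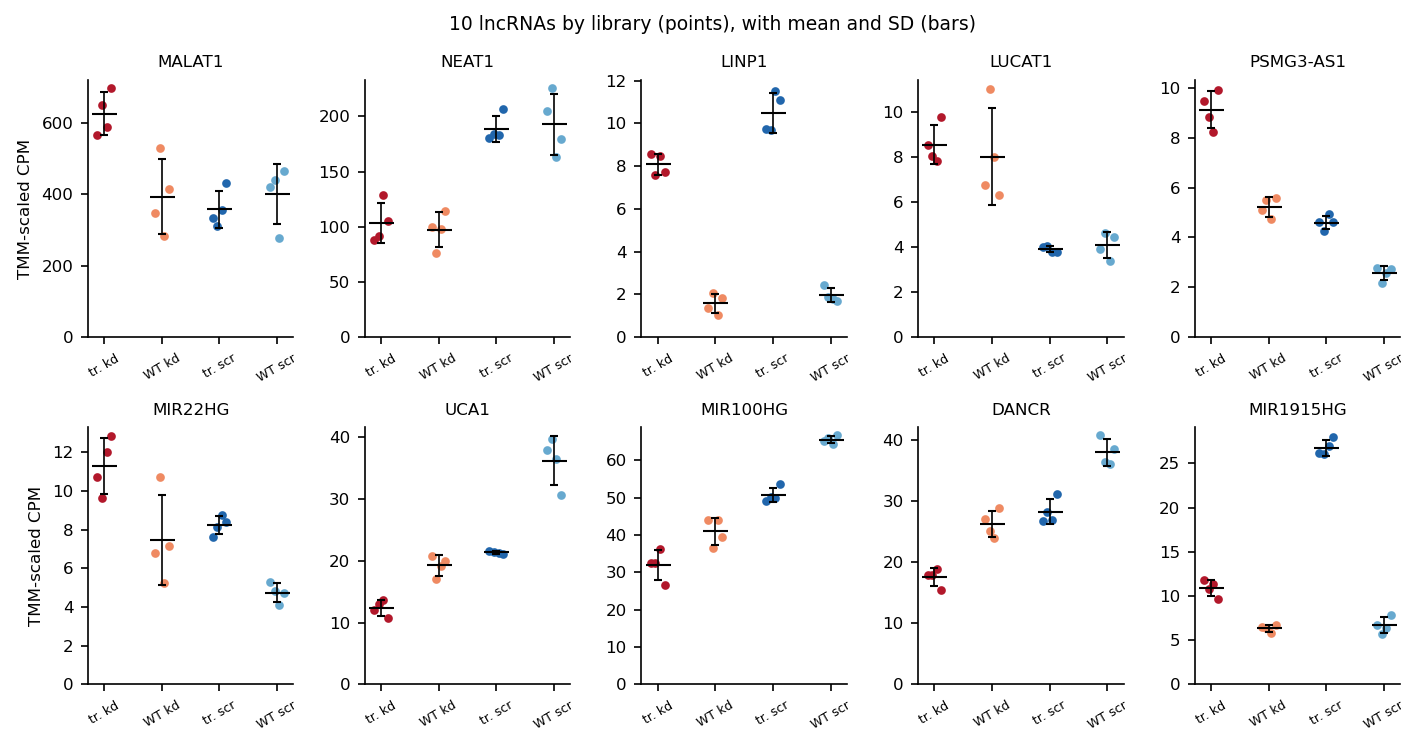
TMM-scaled CPM of 10 lncRNAs in each library (points), with group means and SD (bars), in the order truncation knockdown (tr. kd), WT knockdown (WT kd), truncation scramble (tr. scr) and WT scramble (WT scr). PSMG3-AS1 is highest and UCA1, MIR100HG and DANCR are lowest in truncation knockdown cells, LINP1 is high in both truncation groups, and MIR1915HG is highest in truncation scramble cells.

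Of 6 lncRNAs listed for hypoxia or stress, the 3 members gave 2 higher and 1 lower call with knockdown in each genotype, and 2 higher and 0 lower with truncation at each siRNA. They were MIR22HG and LUCAT1, which rose with knockdown, and NORAD, which fell. Of all genes tested 56.7% were called with knockdown in truncation cells and 50.3% in WT cells. With truncation 44.0% of all genes were called in scramble cells and 45.5% in knockdown cells. LUCAT1, a lncRNA that is known to be induced by oxidative stress through NRF2 and by interferon (chr5:91054834-91314547, minus strand), had 8.56, 8.05, 7.83 and 9.76 CPM in truncation knockdown cells, against 4.03, 4.04, 3.80 and 3.77 CPM in truncation scramble cells. It had 6.75, 11, 8.01 and 6.30 CPM in WT knockdown cells, against 3.94, 4.64, 3.36 and 4.47 CPM in WT scramble cells. Knockdown and scramble libraries did not overlap, with log2 fold changes of 1.16 ± 0.14 (adjusted p = 1.8e-07, edgeR) and 0.98 ± 0.14 (adjusted p = 3.6e-06), while truncation moved it by -0.08 ± 0.15 and 0.10 ± 0.13, neither called. Every scramble library lay under 5 CPM, so LUCAT1 reached the mean of 5 CPM only through the knockdown groups. Its rise with knockdown is therefore in part a product of its choice.

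NORAD, a cytoplasmic lncRNA known for binding Pumilio proteins, fell with knockdown and rose with truncation. It had 182, 178, 196 and 180 CPM in truncation knockdown cells, 160, 158, 155 and 148 CPM in WT knockdown cells, 273, 264, 270 and 255 CPM in truncation scramble cells and 195, 222, 226 and 198 CPM in WT scramble cells. The log2 fold changes were -0.49 ± 0.05 and -0.42 ± 0.05 with knockdown in truncation and WT cells, and 0.32 ± 0.05 and 0.25 ± 0.05 with truncation in scramble and knockdown cells. Of the 11 listed cytoplasmic regulators 7 were members: with knockdown 1 rose and 4 fell in truncation cells and 2 rose and 4 fell in WT cells, and with truncation 2 rose and 3 fell at each siRNA. Knockdown gave calls for 56.7% of all genes tested in truncation cells and 50.3% in WT cells. Truncation gave calls for 44.0% of all genes in scramble cells and 45.5% in knockdown cells. OIP5-AS1, which is known for pairing with miR-7, fell with knockdown by 0.63 in truncation cells and by 0.51 in WT cells on the log2 scale, and BCYRN1, known as a translation repressor, fell in both genotypes too, at -0.57 ± 0.14 and -0.60 ± 0.12, although it has near-identical copies and its counts are uncertain. FTX, a neighbour of XIST and the only one of 9 listed imprinted or X-linked lncRNAs in the set, was called only with truncation in knockdown cells, at 0.44 ± 0.16, and lost that call without truncation knockdown replicate 4, where the change was 0.30, and without WT knockdown replicates 1 or 3.

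LINP1 reached the mean of 5 CPM only through the truncation groups, so that its difference was built into its choice and is given as a description. It is a scaffold in non-homologous end joining of DNA breaks (chr10:6709530-6740532, plus strand), and had 8.56, 7.61, 8.49 and 7.74 CPM in truncation knockdown cells, against 1.37, 2.06, 1.05 and 1.85 CPM in WT knockdown cells, and 9.73, 9.69, 11.5 and 11.1 CPM in truncation scramble cells, against 2.44, 1.88, 1.80 and 1.72 CPM in WT scramble cells. Truncation libraries lay far above WT libraries at both siRNAs, with log2 fold changes of 2.37 ± 0.14 in knockdown and 2.41 ± 0.14 in scramble cells. Among the 123 lncRNAs at 5 CPM or more in every group, the largest rises with truncation were 1.19 in LINC02331 in knockdown cells and 1.99 in MIR1915HG in scramble cells. Several other members rose with truncation at both siRNAs with no overlap. LINC02331 averaged 20.2 ± 2.0 CPM in truncation knockdown cells against 8.92 ± 1.3 CPM in WT knockdown cells, and 23.8 ± 1.5 CPM in truncation scramble cells against 8.72 ± 0.94 CPM in WT scramble cells. PRECSIT rose by 1.05 ± 0.08 in knockdown and 1.28 ± 0.08 in scramble cells, ZFPM2-AS1 by 1.14 ± 0.08 and 1.05 ± 0.08, and LINC01270 by 1.17 ± 0.10 and 0.82 ± 0.10. LINC01270 averaged 3.39 CPM in WT knockdown cells and 3.89 CPM in WT scramble cells. Like LINP1, it reached the mean of 5 CPM only through the truncation groups, so its rise was built into its choice. ADIRF-AS1 fell with truncation at both siRNAs, by 0.71 in knockdown cells and by 1.09 in scramble cells on the log2 scale, as did EMSLR, by 1.02 and 0.73.

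PSMG3-AS1 and ZFAND2A-DT face genes of the ubiquitin and proteasome system. PSMG3-AS1 runs opposite PSMG3, which encodes an assembly chaperone of the proteasome (chr7:1570073-1589626, plus strand), and had 9.48, 8.84, 8.22 and 9.93 CPM in truncation knockdown cells, 5.11, 5.49, 4.73 and 5.57 CPM in WT knockdown cells, 4.62, 4.25, 4.92 and 4.599 CPM in truncation scramble cells and 2.79, 2.16, 2.57 and 2.75 CPM in WT scramble cells. All truncation knockdown libraries were above, and all WT scramble libraries below, those of the other groups. PSMG3-AS1 averaged under 5 CPM in both scramble groups, so its changes are in part a product of its choice. Its log2 fold changes were 1.02 ± 0.10 and 1.03 ± 0.11 with knockdown in truncation and WT cells, and 0.83 ± 0.11 and 0.81 ± 0.10 with truncation in scramble and knockdown cells. The interaction was -0.01 ± 0.14 (adjusted p = 0.98), which does not show that the knockdown effects were equal. PSMG3 itself fell with knockdown, by 0.64 in truncation cells and by 0.54 in WT cells on the log2 scale, and moved by 0.02 ± 0.08 and -0.08 ± 0.08 with truncation, neither called.

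ZFAND2A-DT starts beside ZFAND2A, which encodes the arsenite-inducible proteasome-associated protein. It had 15.2, 14.5, 16.8 and 13.3 CPM in truncation knockdown cells, against 6.68, 6.40, 7.16 and 6.13 CPM in WT knockdown cells, and 11.1, 13.4, 11.5 and 12.7 CPM in truncation scramble cells, against 6.83, 6.14, 6.07 and 5.68 CPM in WT scramble cells. Truncation raised it by 1.19 ± 0.09 and 0.96 ± 0.09, and its partner ZFAND2A by 0.72 ± 0.10 and 0.67 ± 0.10, in knockdown and scramble cells.

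Promoters of these members from RefSeq (GRCh38.p14), 250 bases before to 50 after the start, are shown to set the sequence beside the changes. Matches to 5 motifs, searched on both strands, are in capitals: TGACNNNGC (the core of the antioxidant response element), TGANTCA (AP-1), GAANNTTC (the core of the heat shock element), CCAAT and GGGCGG (GC box). LINP1 lies at chr10:6737132-6737431 (plus strand), LUCAT1 at chr5:91314353-91314652 (minus strand), PSMG3-AS1 at chr7:1569823-1570122 (plus strand) and the first of 2 ZFAND2A-DT starts at chr7:1160124-1160423 (plus strand):
LINP1: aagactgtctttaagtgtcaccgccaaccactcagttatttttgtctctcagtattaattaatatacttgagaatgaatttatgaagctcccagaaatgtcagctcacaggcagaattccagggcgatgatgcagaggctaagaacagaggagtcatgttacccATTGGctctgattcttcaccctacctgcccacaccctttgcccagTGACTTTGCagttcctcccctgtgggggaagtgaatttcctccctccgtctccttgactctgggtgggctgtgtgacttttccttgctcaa
LUCAT1: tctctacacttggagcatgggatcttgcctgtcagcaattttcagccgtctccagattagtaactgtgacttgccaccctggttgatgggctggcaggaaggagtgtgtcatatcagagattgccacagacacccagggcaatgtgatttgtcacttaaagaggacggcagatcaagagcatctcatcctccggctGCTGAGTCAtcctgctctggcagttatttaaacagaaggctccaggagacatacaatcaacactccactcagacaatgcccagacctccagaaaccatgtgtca
PSMG3-AS1: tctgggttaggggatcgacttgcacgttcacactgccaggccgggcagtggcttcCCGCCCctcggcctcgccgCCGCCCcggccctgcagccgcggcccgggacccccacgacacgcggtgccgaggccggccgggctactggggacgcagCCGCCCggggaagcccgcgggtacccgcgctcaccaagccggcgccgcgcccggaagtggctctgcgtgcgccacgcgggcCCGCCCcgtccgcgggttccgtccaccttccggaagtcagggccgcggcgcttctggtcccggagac
ZFAND2A-DT: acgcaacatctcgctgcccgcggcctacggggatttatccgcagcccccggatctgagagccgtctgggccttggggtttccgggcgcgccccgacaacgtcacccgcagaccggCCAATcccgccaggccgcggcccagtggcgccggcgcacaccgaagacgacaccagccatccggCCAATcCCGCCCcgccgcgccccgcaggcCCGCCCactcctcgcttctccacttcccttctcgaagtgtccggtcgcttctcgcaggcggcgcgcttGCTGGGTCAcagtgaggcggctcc

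The LUCAT1 window held 1 antioxidant response element match that overlaps its AP-1 match. LINP1 and ZFAND2A-DT held 1 antioxidant response element match each, and PSMG3-AS1 held 4 GC boxes. The LINP1 window is that of a RefSeq start inside the GENCODE span of the gene given above, not of the start of that span. RefSeq had promoters for 113 members, 157 windows in all. The antioxidant response element core was present in 19.1% of these, against 13.3% of all 35116 promoter windows, the AP-1 letters in 8.92% against 7.71%, the heat shock core in 5.73% against 6.77%, CCAAT in 35.7% against 34.6% and the GC box in 61.1% against 45.0%. These matches describe letters and are not evidence of binding.

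With knockdown several other members rose in both genotypes. PINK1-AS, antisense to the mitophagy kinase gene PINK1, had 9.28, 10.4, 8.45 and 10.7 CPM in truncation knockdown cells, against 5.11, 4.86, 4.62 and 5.02 CPM in truncation scramble cells, and 10.7, 13.6, 8.08 and 12.1 CPM in WT knockdown cells, against 5.64, 5.62, 5.10 and 6.47 CPM in WT scramble cells. It rose by 1.02 ± 0.12 and 0.97 ± 0.12 with no overlap, but 52.5% of its exon bases are shared with other genes, so part of its counts may belong to PINK1 or DDOST. PINK1 was called higher in truncation cells (0.33 ± 0.09) and not in WT cells (0.14 ± 0.09). RNF216P1, a copy of RNF216 whose reads may be split with it, rose by 0.98 ± 0.07 and 0.92 ± 0.07, and LINC02035 by 1.17 ± 0.12 and 0.76 ± 0.12. Other rises differed between the genotypes by a called interaction: ENSG00000288398 rose by 1.10 ± 0.09 in truncation cells and 0.55 ± 0.09 in WT cells, and ENSG00000273230 rose by 1.01 ± 0.12 in truncation cells and moved by 0.29 ± 0.12 in WT cells, which was not called.

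Among those that fell, CEROX1, a lncRNA known to regulate mitochondrial complex I, had 4.00, 4.13, 5.18 and 4.44 CPM in truncation knockdown cells, against 10.4, 11.4, 11.7 and 10.7 CPM in truncation scramble cells, and 5.48, 4.89, 4.11 and 5.92 CPM in WT knockdown cells, against 11.8, 11.3, 8.43 and 10.2 CPM in WT scramble cells. The groups did not overlap, and the changes were -1.28 ± 0.11 and -1.03 ± 0.11. ARRDC1-AS1 fell by 1.04 and 1.00, TMEM147-AS1 by 0.79 and 1.11 and ABALON by 0.74 and 1.00 on the log2 scale in truncation and WT cells. ABALON lies within BCL2L1 and shares 74.8% of its exon bases with it. Where the partner of an antisense member was measured, it could fall alongside: ARRDC1 changed by -0.88 ± 0.09 and -0.74 ± 0.09, and TMEM147 by -0.58 ± 0.07 and -0.43 ± 0.07.

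The interaction asks whether the knockdown effect differed between genotypes. It was called for 21 lncRNAs, 17 with a more positive knockdown effect in truncation cells and 4 with a more negative one, which is 11.5%. Of all genes tested 5.69% were called, 2.05% more positive and 3.65% more negative, and of well expressed protein-coding genes 7.54%. The direction over all genes depended on the scaling, with 350 more positive and 624 more negative as given, 502 and 397 with upper-quartile scaling, and 401 and 1185 with DESeq2. For lncRNAs the count was 28 under both of these. It was 12 to 13 without truncation knockdown replicate 4, WT knockdown replicate 1, truncation scramble replicates 1, 2 or 3, or WT scramble replicates 1 or 2, and 31 without WT knockdown replicate 2.

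ENSG00000287707 had the largest positive interaction, 1.04 ± 0.19 (adjusted p = 0.0019, edgeR). It had 8.09, 6.79, 8.09 and 8.82 CPM in truncation knockdown cells, against 2.07, 2.16, 2.17 and 1.80 CPM in truncation scramble cells, and 8.02, 10.03, 6.90 and 8.74 CPM in WT knockdown cells, against 5.09, 4.88, 3.36 and 4.22 CPM in WT scramble cells. The knockdown groups overlapped with each other, while truncation scramble libraries were lower than all others. ENSG00000287707 averaged 2.05 CPM in truncation scramble cells and 4.39 CPM in WT scramble cells. It reached the mean of 5 CPM only through the knockdown groups, so its differences between groups are in part a product of its choice. BCAN-AS1 had 10.6, 10.2, 11.1 and 11.9 CPM in truncation knockdown cells, against 7.07, 5.79, 7.44 and 8.996 CPM in truncation scramble cells, and 3.74, 4.51, 3.91 and 4.18 CPM in WT knockdown cells, against 5.37, 6.38, 4.48 and 5.22 CPM in WT scramble cells. It rose with knockdown in truncation cells (0.61 ± 0.11) and fell in WT cells (-0.38 ± 0.13, a call lost without WT scramble replicate 2, where it was -0.29), and the interaction was 0.99 ± 0.17 (adjusted p = 0.0010).

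Called in opposite directions with knockdown were 4 lncRNAs, chosen after their values were seen: BCAN-AS1, ENSG00000264112, LNC-WAL and ENSG00000279088, each higher in truncation cells and lower in WT cells. ENSG00000264112 averaged 36.5 ± 6.3 CPM in truncation knockdown and 26.8 ± 3.6 CPM in truncation scramble cells, and 36.5 ± 1.8 CPM in WT knockdown against 47.6 ± 8.0 CPM in WT scramble cells (SD, n = 4). The LNC-WAL rise in truncation cells, 0.27 ± 0.11, lost its call with DESeq2, with no filter, and without any of the truncation knockdown replicates or truncation scramble replicates 1 or 2. The 4 more negative interactions were MIR1915HG, LINC00963 (-0.48 ± 0.11), CTBP1-DT (-0.43 ± 0.13, adjusted p = 0.049, lost with upper-quartile scaling and without every single library except WT knockdown replicate 2 and truncation scramble replicate 4 and truncation knockdown replicate 3) and LINC00511 (-0.36 ± 0.07). LINC00511 had 37.5, 37.8, 37.3 and 37.4 CPM in truncation knockdown cells, against 53.5, 54.4, 55.2 and 54.5 CPM in truncation scramble cells, and 40.1, 37.8, 38.6 and 39.99 CPM in WT knockdown cells, against 45.3, 41.2, 45.2 and 42.6 CPM in WT scramble cells.

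MIR9-1HG and SLC25A25-AS1 were also called, at 0.80 ± 0.21 and 0.65 ± 0.17. Both calls were lost without truncation knockdown replicate 4, WT knockdown replicate 1, truncation scramble replicate 2 or WT scramble replicates 1 or 2, the first also without truncation scramble replicate 3 and the second without truncation scramble replicate 1.

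For 74 members the symbol names a measured partner gene, 52 of them -AS, 21 -DT and 1 -OT. Where both genes of a pair were called, they moved the same way in 19 pairs and in opposite ways in 7 with truncation in scramble cells, in 19 and 6 with truncation in knockdown cells, in 27 and 15 with knockdown in truncation cells, and in 17 and 8 with knockdown in WT cells. The -DT pairs gave 6 and 1, 9 and 1, 11 and 2, and 8 and 1 in that order, and the -AS pairs 13 and 6, 10 and 5, 16 and 13, and 9 and 6. Across the -DT pairs the log2 fold changes of lncRNA and partner correlated with r = 0.56, 0.57, 0.56 and 0.39, and across the -AS pairs with r = 0.26, 0.31, 0.19 and 0.29. These are descriptions over genes, and the counting's strand setting is not given in the sources used here, so overlapping partners may share counts. In all, 108 of 177 members in GENCODE release 29 share exon bases with another gene, 91 of them with a gene on the other strand, and 69 share none. Those 69 were called in 65.2% with truncation at each siRNA and in 71.0% and 62.3% with knockdown in truncation and WT cells, against 57.4% and 52.8% of the 108 with truncation in scramble and knockdown cells and 64.8% and 63.0% with knockdown in truncation and WT cells.

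In some pairs the genes moved apart. GAS6-DT was chosen after its values were seen, and its results under the alternatives were not examined. It rose with truncation by 0.62 in scramble and by 0.68 in knockdown cells on the log2 scale. GAS6, which encodes a ligand of TAM receptor kinases, fell by 0.42 and by 0.51. SLC25A25-AS1 rose by 0.62 with knockdown in truncation cells while SLC25A25, a mitochondrial carrier gene, fell by 0.80. CTBP1-DT fell with knockdown by 1.05 in truncation and by 0.62 in WT cells, and the corepressor gene CTBP1 moved by -0.07 ± 0.06 and 0.07 ± 0.06, neither called.

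**Figure D5:**
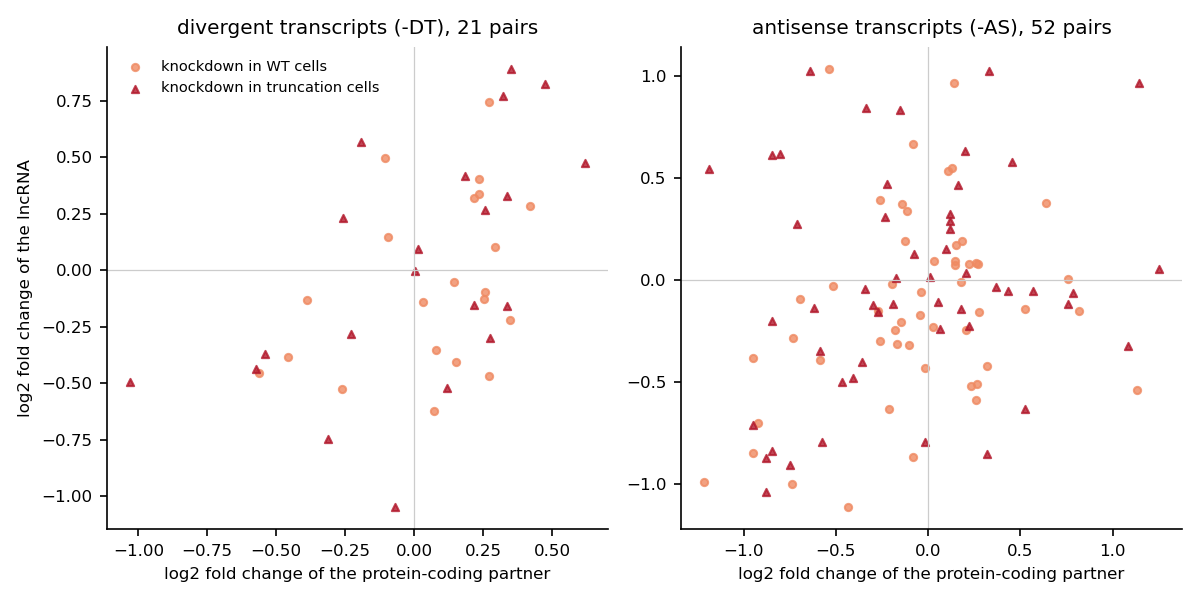
Log2 fold change of the lncRNA (y) against that of the partner named in its symbol (x) with knockdown in truncation cells (triangles) and in WT cells (circles), for 21 divergent (left) and 52 antisense (right) pairs. The divergent pairs gave r = 0.56 in truncation cells and 0.39 in WT cells, and the antisense pairs, which are spread on all sides of both zero lines, 0.19 and 0.29.

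Nuclear lncRNAs are degraded by the RNA exosome and cytoplasmic ones in part by nonsense-mediated decay. Of 19 exosome subunits and adaptors, 6 rose and 9 fell with knockdown in truncation cells and 6 rose and 7 fell in WT cells, and 1 rose and 6 fell with truncation in scramble cells and 1 rose and 9 fell in knockdown cells. Of 14 decay factors, 6 rose and 4 fell, 6 rose and 3 fell, 1 rose and 2 fell, and 1 rose and 2 fell, in the same order. Well expressed protein-coding genes were called in 68.9%, 63.4%, 53.3% and 56.9% of cases, also in that order. With truncation, 11 of the 14 decay factors were not called at each siRNA. The differences between these shares were not tested. EIF4A3, the helicase of the exon junction complex, had the largest change of these lists: it averaged 130 ± 7.3 CPM in truncation knockdown cells and 376 ± 7.4 CPM in truncation scramble cells, and 163 ± 16 CPM in WT knockdown against 368 ± 16 CPM in WT scramble cells (SD, n = 4), with log2 fold changes of -1.50 ± 0.06 and -1.17 ± 0.06. The catalytic exosome subunit gene DIS3 rose by 0.40 ± 0.05 and 0.36 ± 0.05, and RBM7, an adaptor of the nuclear exosome, by 0.41 ± 0.07 and 0.59 ± 0.07. Whether these levels bear on those of the lncRNAs was not tested.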

How the data were processed

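RNA of 16 libraries was sequenced. The raw table deposited by the authors holds counts per Ensembl gene for 60668 genes, a filtered table keeps 22916 of them, and a signal table deposited by the authors holds their TMM-scaled CPM, which equalled CPM recomputed here to a relative difference of 5.0e-15. Per the submitters' processing notes STAR 2.7.3a, DESeq2, edgeR and limma were used with hg38, without stating what each did. Which program counted reads, with which annotation release and strand option, is not given in the sources used here.

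Raw counts were fitted with edgeR 4.0.16 (R 4.3.3): filterByExpr left 17104 genes, TMM scaling, the quasi-likelihood test with 1 coefficient per group over all 16 libraries (12 residual degrees of freedom, common biological coefficient of variation 7.25%), two-sided, Benjamini-Hochberg adjusted over all genes tested. On counts simulated from these libraries the fit was tested before use. Each standard error is |log2 fold change| over the root of its F statistic. Groups came from the description and treatment labels, where the libraries are biological replicates but no separate cultures are named. The p-values therefore cover only variation among these libraries, which may be technical. No replicate pair was identical, and each library counted once. The labels do not say whether replicate numbers pair the samples. Correlations of same-numbered deviations were weak, at -0.078 to 0.16, which cannot settle whether those libraries were handled together. Alternatives were upper-quartile scaling, DESeq2 1.42.0, no filter, only the groups compared, a replicate block and each library left out.

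The members and lists were chosen with earlier results of these data known. Named members are the 12 with the highest mean, up to 8 per direction and comparison with the largest called changes without overlap between groups (for the interaction, called only), and those on the role lists, 65 in all; any other is said to be chosen otherwise. Coordinates are 1-based on GRCh38 from GENCODE release 29, whose release may differ from the authors', and 177 of 183 members had an entry. RefSeq tables gave miRNAs and promoters; 9 members on chromosome 8 are shown without sequence.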

Additional observations from a re-analysis of the deposited data

Results flagged for a closer look

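In 13 of 260 groups of 4 libraries checked (65 named lncRNAs in 4 groups), 1 library stood far from the other 3 by Dixon's criterion, which chance gives in about 1 of 20 groups. In truncation knockdown cells these were CAST at 108 CPM in replicate 4 (others 119 to 121), ADIRF-AS1 at 3.34 CPM in replicate 2 (others 5.05 to 5.29), ENSG00000273230 at 10.9 CPM in replicate 4 (others 8.45 to 8.87) and MIR9-1HG at 5.91 CPM in replicate 4 (others 4.64 to 4.85). In WT knockdown cells they were ENSG00000264112 at 33.9 CPM in replicate 1 (others 37.1 to 37.8), ENSG00000273230 at 8.49 CPM in replicate 2 (others 6.08 to 6.41) and ENSG00000236255 at 5.06 CPM in replicate 3 (others 5.71 to 5.77). In truncation scramble cells they were NEAT1 at 206 CPM in replicate 4 (others 181 to 184), CASC19 at 5.82 CPM in replicate 2 (others 5.15 to 5.26) and MIR3667HG at 7.43 CPM in replicate 2 (others 6.41 to 6.51). In WT scramble cells they were GAS5 at 161 CPM in replicate 3 (others 173 to 174), PRECSIT at 9.61 CPM in replicate 4 (others 8.19 to 8.41) and BCYRN1 at 11.9 CPM in replicate 4 (others 8.58 to 9.13).

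The knockdown effect differed between genotypes, by edgeR's interaction test, for 13 named lncRNAs. The difference on the log2 scale, truncation minus WT, was 0.86 for MALAT1, 0.86 for ENSG00000264112, 0.54 for ENSG00000288398, 0.63 for LNC-WAL, 0.99 for BCAN-AS1, 0.65 for SLC25A25-AS1, 0.72 for ENSG00000273230, 1.04 for ENSG00000287707 and 0.80 for MIR9-1HG. It was -0.36 for LINC00511, -0.48 for LINC00963, -1.20 for MIR1915HG and -0.43 for CTBP1-DT.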

How the results depend on the processing

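Counts of called lncRNAs stayed within 1.5 times of those reported under upper-quartile scaling, DESeq2 and no filter, and for the 4 comparisons of 2 groups also with only the groups compared, a setting not run for the interaction, and without each library of those groups. The interaction count of 21 ranged from 12 to 31 without 1 library, and the cause was not tested. With a replicate block the counts were 110 and 105 with truncation in scramble and knockdown cells, 112 and 124 with knockdown in WT and truncation cells, and 21 for the interaction. Deviations of same-numbered libraries correlated only weakly, and 6 of 16 libraries correlated best with their own number, which leaves a pairing undecided. Of 206 calls of named lncRNAs, 187 held under every alternative run for them (13 for a call between 2 groups, 20 for an interaction call), 19 were lost under at least 1, each of them without some library, and none reversed. Members numbered 76 at a mean of at least 10 CPM. The member with fewest had 32 counts in a library, at totals of at least 28777244 counts, so small changes of the lowest members may not have been detectable.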
